A study of Homo sapiens with 6 samples.

Results

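The genes POU5F1, SOX2 and NANOG encode the core transcription factors of pluripotent cells. All summits of open chromatin inside these 3 genes and within 50 kb of them were taken, which gave 119 of the 356720 summits in the series. The summits fell into 41 of the 123131 sites of the genome, 14 around POU5F1, 14 around SOX2 and 13 around NANOG. The genes were chosen by a measured value, the number of summits near their ends, which had been seen to be lower with HNRNPU knockdown at SOX2 and NANOG. Every comparison of the groups below is therefore a description, without a test, and is set beside the same count over all sites or all protein-coding genes.

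The data are ATAC-seq libraries, in which the Tn5 transposase cuts accessible DNA, from 50000 cells each of H1, an established human embryonic stem cell line. The cells were infected with virus carrying a short hairpin RNA and selected with puromycin. There were 2 libraries for each of 3 hairpins: shHNRNPU #1 and shHNRNPU #2, which target HNRNPU, and shLUC, which targets luciferase, a gene these cells do not have. HNRNPU encodes an RNA- and DNA-binding protein of the nuclear matrix, and the series asks what it does in pluripotent cells. The level of HNRNPU is not measured by these files, the labels name no batch or date, and nothing says whether the repeats were separate cultures.

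OCT4, the product of POU5F1, is a POU-domain factor that binds an octamer-like motif. SOX2 has an HMG box and binds a short AT-rich motif, often directly beside OCT4 on a composite element. NANOG is a homeodomain factor. The 3 proteins bind regulatory DNA of each other's genes and of their own, and the pairing of OCT4 with SOX2 at the NANOG promoter is a textbook example. Accessible DNA at these genes marks where such factors and the transcription machinery can bind.

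A summit is the position of strongest signal in a peak, and each list gave 1 summit per peak. Peaks were called in each library on its own. The score of a summit was read as the −log10 of its q-value, from the smallest score in the lists, since no label says whether it is a p-value or a q-value. Scores are not comparable between libraries, so each was turned into a percentile within its own list, where 100 would be the strongest summit. Lists held 52168 to 63519 summits. Read depth is unknown, and a site with no summit in a library was not called there, which does not show that it was closed. A site counted as present in a library with a summit at most 250 bp from its centre. Reads from pseudogene copies of NANOG and POU5F1 may be shared with the genes, and how the authors treated such reads is not given in the sources used here.

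As a check of the cell type, a summit lay within 2000 bp of an end of the gene in all 6 libraries for 10 of 10 markers of pluripotent cells. This was so for 4 of 4 markers each of definitive endoderm, mesoderm and neuroectoderm, 3 of 4 of trophectoderm, 3 of 4 of fibroblasts and 1 of 4 of blood. Over all 20037 protein-coding genes the share was 68.5%. Open gene ends are thus common also at lineage genes, and PTPRC, HBB and FAP had none in any library. The summed number of gene-end summits over the pluripotency markers was 14 to 19 in the shHNRNPU libraries and 17 to 20 in the shLUC libraries. Among these markers are POU5F1, SOX2 and NANOG, which were chosen by this number, so these sums are no comparison of the groups.

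POU5F1 lies on chromosome 6 at 31164337 to 31170682 on the reverse strand, SOX2 on chromosome 3 at 181711925 to 181714436 and NANOG on chromosome 12 at 7789402 to 7799146, all on GRCh38. SOX2 lies within the long noncoding RNA gene SOX2-OT. A summit called at the start of NANOG in both shLUC libraries and one called at the start of SOX2 in 3 libraries fell inside the RefSeq promoter windows, from 250 bases before to 50 bases after the start. Those windows are printed here because the results below turn on them, 5′ to 3′ on the forward strand of GRCh38.p14. Capitals mark matches to the motifs searched. The NANOG window is chr12:7789152-7789451 and the SOX2 window is chr3:181711675-181711974.

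NANOG: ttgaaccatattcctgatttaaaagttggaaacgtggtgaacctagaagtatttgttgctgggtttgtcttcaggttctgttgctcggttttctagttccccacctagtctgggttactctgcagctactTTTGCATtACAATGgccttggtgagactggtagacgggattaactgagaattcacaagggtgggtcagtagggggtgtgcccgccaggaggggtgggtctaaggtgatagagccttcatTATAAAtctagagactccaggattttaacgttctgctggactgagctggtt

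SOX2: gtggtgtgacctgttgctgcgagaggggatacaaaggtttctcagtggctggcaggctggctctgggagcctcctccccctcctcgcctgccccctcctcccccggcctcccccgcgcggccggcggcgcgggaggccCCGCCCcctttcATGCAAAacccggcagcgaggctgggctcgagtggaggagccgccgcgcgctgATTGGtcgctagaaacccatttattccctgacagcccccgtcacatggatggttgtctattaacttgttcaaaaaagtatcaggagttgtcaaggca

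The motifs were searched on both strands: the octamer ATTTGCAT, the SOX element ACAATG, the TATA box TATAAA, the CCAAT box CCAAT and the GC box GGGCGG. The full octamer matched neither window and was in 1.77% of the 35116 promoters of the table. Its last 7 letters, TTTGCAT, were added after the sequences had been seen, matched both windows, and were in 4.46% of promoters. In the NANOG window these 7 letters are followed after 1 base by the SOX element, which was in 10.8% of promoters, and the TATA box letters, in 11.5% of promoters, span the annotated start. The SOX2 window holds the GC box, the CCAAT box and TTTGCAT, each on the reverse strand. The GC box letters were in 45.0% and the CCAAT box letters in 34.6% of promoters. The NANOG window has a GC content of 46.7% and 5 CG dinucleotides, the SOX2 window 63.3% and 20, and the median promoter 58.7% and 14. These matches describe the letters only.

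The NANOG start was the site that differed most clearly between the groups by presence. Its centre is at position 7789351, 51 bp upstream of the annotated start and outside the gene body. In shLUC repeat 1 the summit had a score of 15.5 and a percentile of 75.5, and in shLUC repeat 2 a score of 7.77 and a percentile of 53.5. None of the 4 shHNRNPU libraries had a summit within 250 bp. Their nearest summits were 1633, 1568, 1618 and 1585 bp away, in the order #1 repeat 1, #1 repeat 2, #2 repeat 1 and #2 repeat 2. The site was thus called with the control hairpin alone, and 1 of the 41 sites had that pattern of both shLUC and no shHNRNPU library. Over the whole series it was found at 1.93% of sites, and at 5.68% of the sites held by both shLUC libraries. The reverse pattern, all 4 shHNRNPU and neither shLUC library, was found at 0 of the 41 sites, beside 0.88% of all sites. A count of 1 in 41 is near the share for the genome, so the 3 genes did not stand out by the number of such sites.

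The position and rank of the NANOG site can be set beside the other sites of the same pattern. Its lower percentile, 53.5, exceeded the lower percentile of 90.8% of the 2372 sites lost in this way, whose median was 24.2. Counted at annotated starts instead of site centres, a way of counting added after the result was seen, 1 of the 3 genes had a summit within 250 bp of its start in both shLUC and in no shHNRNPU library. This was so for 47 of 15844 protein-coding genes with a known strand, or 0.297%, and for 0.613% of those with a start summit in both shLUC libraries. A start summit in all 4 shHNRNPU and neither shLUC library was found at 0 of the 3 genes, beside 0.423% of all. At 14 of the 47 no shHNRNPU summit lay within 1000 bp of the start, NANOG among them, and the median distance was 503 bp. The start summit is among the gene-end summits by which NANOG was chosen. The count of 1 in 3 genes and the rank of the site therefore add no support beyond that choice.

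The open region next to the NANOG start was called in every library. Its centre is 1636 bp upstream of the start, at position 7787766, and the summits of the 6 libraries lay within 78 bp of each other. Its percentiles were 57.6 and 38.8 with shHNRNPU #1, 71.3 and 77.1 with shHNRNPU #2, and 52.6 and 43.9 with shLUC. Both shHNRNPU #2 libraries were above both shLUC libraries, while those of shHNRNPU #1 lay on either side of them. The shHNRNPU mean of 61.2 ± 17.0 (SD, n = 4) and the shLUC mean of 48.3 ± 6.1 (SD, n = 2) differed by less than the spread of the shHNRNPU libraries. Both shLUC lists held this summit and the one at the start as separate peaks. Each library had 3606 to 4371 pairs of neighbouring summits at most 1600 bp apart, so summits at this distance were called separately in all lists. Peak widths were not used here, and whether a shHNRNPU peak reached from the upstream summit over the start was not tested.

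At the far end of NANOG the calls were scattered. Summits were called 8610 bp from the start in shHNRNPU #1 repeat 1, 8885 bp in #1 repeat 2, 9716 bp in shLUC repeat 1 and 8868 bp in shLUC repeat 2, inside the gene and within 2000 bp of its end. They were weak, with percentiles from 19.0 to 34.6. The nearest summits of the shHNRNPU #2 libraries were 10279 and 10246 bp from the first of these positions. The summits at 8885 and 8868 bp formed 1 site, and those at 8610 and 9716 bp were each called in 1 library. No site there was held by both repeats of a hairpin. Both HNRNPU hairpins lacked the start summit, and shHNRNPU #2 had no summit called near the far end.

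**Figure D1:**
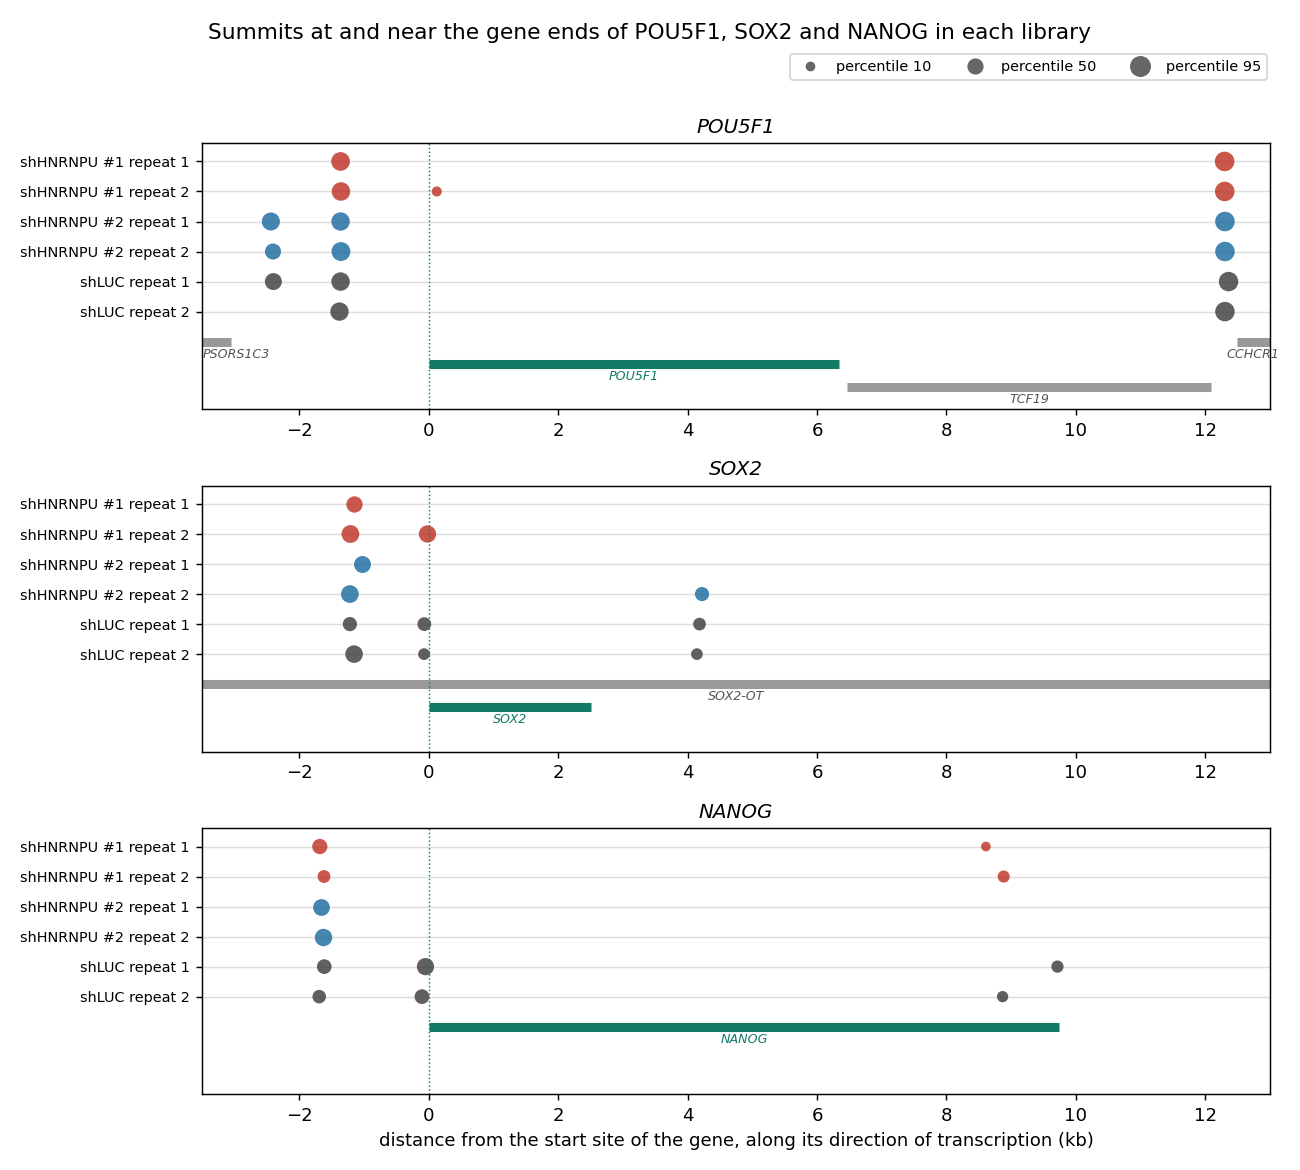
Summits at the ends of the 3 genes in each library, plotted by distance from the start site along the direction of transcription (kb), with point area growing with percentile and bars for RefSeq genes. At NANOG the summits 51 and 105 bp upstream of the start are present in the 2 shLUC libraries and in 0 of the 4 shHNRNPU libraries, while the region 1636 bp upstream has a summit in all 6.

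The SOX2 start gave a different picture. Its site, centred 20 bp upstream of the annotated start at position 181711905, was called in both shLUC libraries and in shHNRNPU #1 repeat 2. The percentiles were 45.8 and 31.4 in the shLUC libraries and 75.6 in shHNRNPU #1 repeat 2, so the strongest call was in a knockdown library. The other 3 shHNRNPU libraries had their nearest summits 1135, 1004 and 1199 bp away, in the region upstream of the gene. That region, 1211 bp upstream at position 181710714, was called in all 6 libraries with percentiles of 66.7, 80.8, 72.9 and 80.4 with shHNRNPU and 49.4 and 78.8 with shLUC. The groups overlapped there, at 75.2 ± 6.7 (SD, n = 4) and 64.1 ± 20.8 (SD, n = 2). Downstream of SOX2, 1712 bp past its end, a summit was called in both shLUC libraries at percentiles of 37.9 and 31.1 and in shHNRNPU #2 repeat 2 at 48.6. Each of these 2 sites was held by both shLUC libraries and by 1 knockdown library, a different one at each.

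POU5F1 had no summit that followed the groups at its ends. The region 1357 bp upstream of its start, at position 31172039, was among the strongest of the members, and its summits lay within 23 bp of each other in the 6 libraries. Its percentiles were 90.3 and 88.4 with shHNRNPU #1, 87.3 and 92.3 with shHNRNPU #2, and 87.9 and 87.0 with shLUC. The group means of 89.6 ± 2.2 (SD, n = 4) and 87.5 ± 0.64 (SD, n = 2) differed by less than the spread of the shHNRNPU libraries. Near the start itself, 124 bp inside the gene, a summit was called in shHNRNPU #1 repeat 2 alone, at a percentile of 21.2. A further region 2440 bp upstream, at position 31173122, was called in both shHNRNPU #2 libraries at 83.9 and 64.8 and in shLUC repeat 1 at 73.2, and in none of the other 3 libraries. This site divided both the hairpins and the shLUC repeats.

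Counted within 2000 bp of the gene ends, the measure that had singled the genes out, NANOG had 2, 2, 1 and 1 summits in the shHNRNPU libraries and 3 in each shLUC library. SOX2 had 1, 2, 1 and 2 against 3 and 3, and POU5F1 had 1, 2, 1 and 1 against 1 and 1. The mean difference, shHNRNPU minus shLUC, was -1.5 summits at NANOG, -1.5 at SOX2 and 0.25 at POU5F1. All 4 shHNRNPU libraries had fewer gene-end summits than both shLUC libraries at 2 of the 3 genes. Over all protein-coding genes this held for 1.01%, and among the 284 genes with at least 3 such summits in both shLUC libraries for 15.1%. The opposite held at 0 of the 3 genes, beside 0.993% of all genes. The split at SOX2 was lost with a score of at least 5, where the difference was -0.5, and with a gene-end distance of 500 bp, where it was -0.75. At NANOG the difference was -1.25 with a score of at least 5, where the groups no longer separated, and -1.5 with 500 bp, where they did.

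The whole windows of 50 kb to each side gave a mixed order. NANOG had 5, 5, 4 and 4 summits in the shHNRNPU libraries and 8 and 6 in the shLUC libraries, and all 4 lay below both. POU5F1 had 7, 8, 7 and 8 against 6 and 5, and all 4 lay above both. SOX2 had 7, 8, 6 and 7 against 7 and 11, and the groups overlapped. Fewer summits in all 4 shHNRNPU libraries were found for 4.73% of protein-coding genes and more for 4.5%, against 1 of 3 genes in each direction here. These windows include the gene-end summits by which the genes were chosen, so the lower count at NANOG is no separate support. Distal summits alone numbered 3 in each shHNRNPU library at NANOG against 5 and 3 with shLUC, and the groups did not separate. At POU5F1 they numbered 6, 6, 6 and 7 against 5 and 4, and the groups did. Per 100000 summits of the list, the NANOG window had 6.85 to 8.47 with shHNRNPU and 9.78 and 12.9 with shLUC, the same order as for the plain numbers. The difference at POU5F1 was 2 summits, and the separation ended in 4 of the settings run. The difference was then 0.75 for scores of at least 5, 1.5 with lists of one size, 0.5 within 100 kb and -0.25 within 20 kb. At NANOG the difference was -2.5, also with a score of at least 5, but there the groups did not separate. The difference at SOX2 rested on shLUC repeat 2, since the difference was -2 with that library and 0 without it, and -4 without shLUC repeat 1. The NANOG difference was -3.5 without shLUC repeat 2 and -1.5 without shLUC repeat 1.

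Summed over the 3 genes, gene-end and distal summits were counted apart, of which the gene-end number is the value by which the genes were chosen. Gene-end summits numbered 4.25 ± 1.3 (SD, n = 4) in the shHNRNPU libraries and 7 in both shLUC libraries, a difference of -2.75. Distal summits numbered 14.75 ± 0.50 (SD, n = 4) and 14.5 ± 0.71 (SD, n = 2), a difference of 0.25. That distal difference was the sum of 1.75 at POU5F1, -0.5 at SOX2 and -1 at NANOG, and it was -1 within 20 kb, -2 within 100 kb and -0.5 with a gene-end distance of 500 bp. Whether the gene-end and distal differences differ from each other was not tested.

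**Figure D2:**
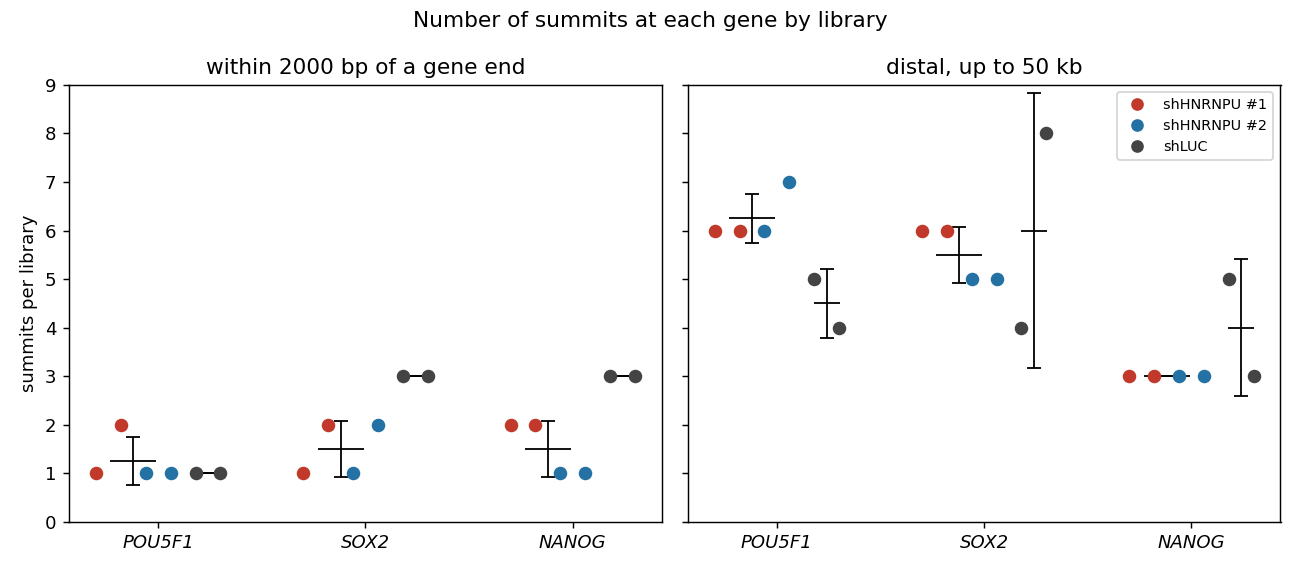
Summits per library within 2000 bp of a gene end (left) and elsewhere within 50 kb (right), one point per library, with bars for the mean and SD of the 4 shHNRNPU and the 2 shLUC libraries. Near the gene ends SOX2 and NANOG had 1 or 2 summits in each shHNRNPU library and 3 in each shLUC library, while POU5F1 did not separate.

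Of the 41 sites, 10 were gene-end and 31 distal. Sites present in all 6 libraries made up 3 of the 10 gene-end and 6 of the 31 distal sites, 22.0% in all, beside 20.7% of the sites of the whole series. A further 14 sites were in 2 to 5 libraries. The remaining 18, or 43.9%, were in 1 library, beside 38.0% for the whole series, and their median percentile was 22.4. Sites called in 1 library were the most frequent of these 3 kinds among the 41 sites, while in the series sites in 2 to 5 libraries were, with 50798 against 46814 in 1 library. Among the 9 sites in all libraries the median percentile was 68.0, below the 75.0 of such sites across the series.

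The strongest site of the 3 windows lay closer to an end of another gene than to POU5F1, and no link to a target gene was tested. It lay 12304 bp past the start of POU5F1, at position 31158378, between CCHCR1, which encodes a coiled-coil protein, and TCF19, which encodes a transcription factor. The start of CCHCR1 was 181 bp away. Its percentiles were 99.3, 99.3, 99.6 and 99.1 with shHNRNPU and 98.3 and 98.6 with shLUC. All 4 shHNRNPU libraries were above both shLUC libraries, by 0.86 percentile points on average.

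The site with the largest difference in percentile among the shared sites lay 44975 bp past the start of SOX2, at position 181756900 and beyond the end of SOX2-OT. Its scores were 32.8, 36.2, 30.5 and 27.9 with shHNRNPU and 16.0 and 15.0 with shLUC. Its percentiles were 90.5, 92.3, 92.2 and 87.0 with shHNRNPU and 76.6 in both shLUC libraries. The 2 groups did not overlap, with means of 90.5 ± 2.5 (SD, n = 4) and 76.6, a difference of 13.9 points. Taken per hairpin it was 14.8 points with shHNRNPU #1 and 13.0 with shHNRNPU #2. It stayed above 13 points when any library was left out, which could not have undone the separation. The difference was 17.2 points with lists of one size and 21.5 with a score of at least 5. In both, percentiles were ranked again after weak summits had been dropped, so these values are not on the same scale. Higher percentiles in all 4 shHNRNPU libraries were thus found at 2 of the 9 shared sites, beside 10.9% of such sites in the series, and lower ones at 0 of 9, beside 13.9%. A separate site nearby, 44281 bp past the SOX2 start, was called in shLUC repeat 2 at a percentile of 70.3. It was also called in shHNRNPU #1 repeat 2 at 30.1, and in no other library. Whether signal of 1 region was split over both sites was not tested.

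The other shared distal sites did not separate the groups. The site 16368 bp upstream of SOX2, inside SOX2-OT, had percentiles of 73.6, 79.7, 77.3 and 53.7 with shHNRNPU and 59.2 and 62.4 with shLUC. The site within SLC2A14, a sugar transporter gene, 42957 bp past the NANOG start had 42.3, 48.7, 52.2 and 17.6 against 36.2 and 54.9. The site at PSORS1C2, 33045 bp past the POU5F1 start, ranged from 12.3 to 66.8 with shHNRNPU and was at 58.8 and 27.6 with shLUC, and its repeats differed more than its groups. Of the 9 sites, 6 were higher with shHNRNPU, beside 12134 of the 25519 shared sites of the series. The median difference over the 9 sites was 2.12 points. The median percentile of each library over the same sites gave a wider gap, with 66.7, 79.7, 72.9 and 77.1 in the shHNRNPU libraries and 58.8 and 62.4 in the shLUC libraries, a difference of 13.5 points between the means and no overlap. With 9 sites each such median is the value of 1 site, which was not the same in all libraries. For example, 77.1 came from the site 1636 bp upstream of NANOG and 58.8 from the site at PSORS1C2. The gap therefore compares different sites, and only 2 of the 9 separated the groups. The median of the differences per site was unsteady, at 2.19 to 8.77 points when 1 library was left out, with the highest value without shHNRNPU #1 repeat 1. Over all 25519 shared sites of the series the median difference was -0.29 points. The medians of each library over all these sites gave a difference of -1.23 points between the group means, and the groups overlapped.

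**Figure D3:**
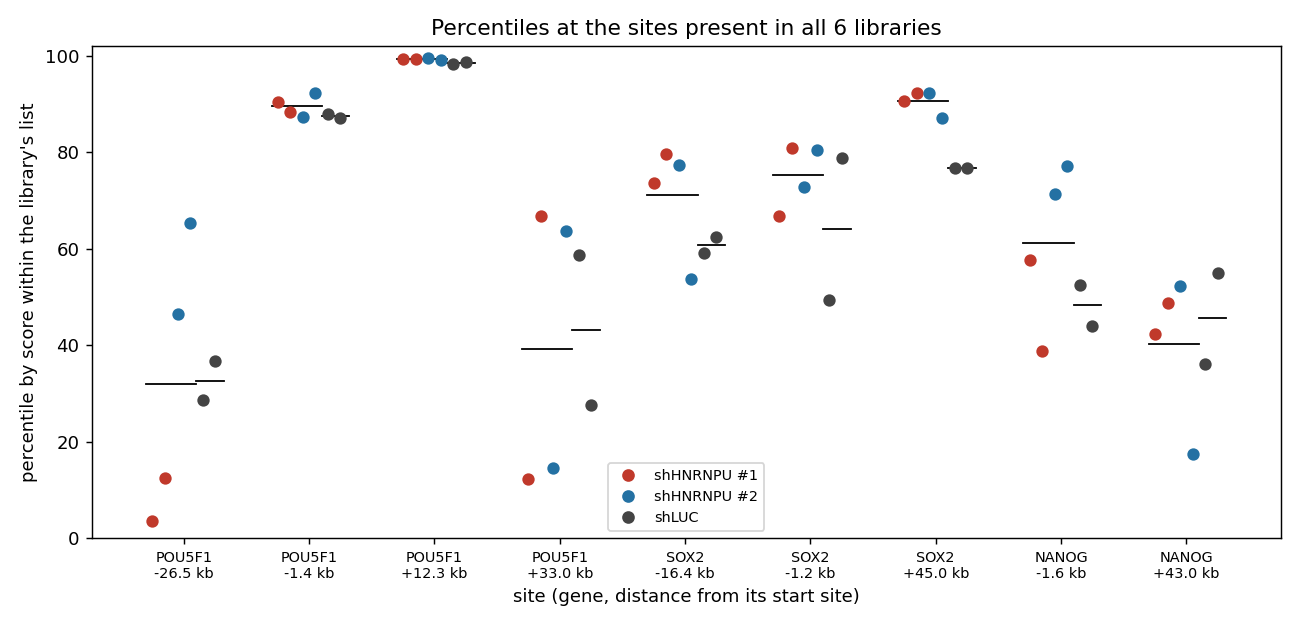
Percentile by score within each library's list at the 9 sites present in all 6 libraries, named by gene and distance from its start (kb), with lines at the group means. The site 44975 bp past the SOX2 start has 87.0 to 92.3 in the shHNRNPU libraries and 76.6 in the shLUC libraries, while most other sites overlap between groups.

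Several distal sites were called in some of the libraries. The site 30859 bp upstream of NANOG, between CLEC4C and NANOGNB, was called in 5 libraries and missed by shHNRNPU #2 repeat 1. Its percentiles were 29.7, 52.1 and 27.2 in the shHNRNPU libraries that had it and 69.4 and 71.6 with shLUC. Upstream of SOX2 and inside SOX2-OT, the site at 11188 bp was called in both shHNRNPU #2 and both shLUC libraries and in neither shHNRNPU #1 library. The site at 9717 bp was called in both shHNRNPU #1 libraries, shHNRNPU #2 repeat 1 and shLUC repeat 2. The site at 7707 bp was called in 3 shHNRNPU libraries and in neither shLUC library, at percentiles of 22.9 to 49.1. Past the SOX2 end, the site 14919 bp from the start was called in all 4 shHNRNPU libraries and shLUC repeat 1, and shLUC repeat 2 had a summit 277 bp from it.

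**Figure D4:**
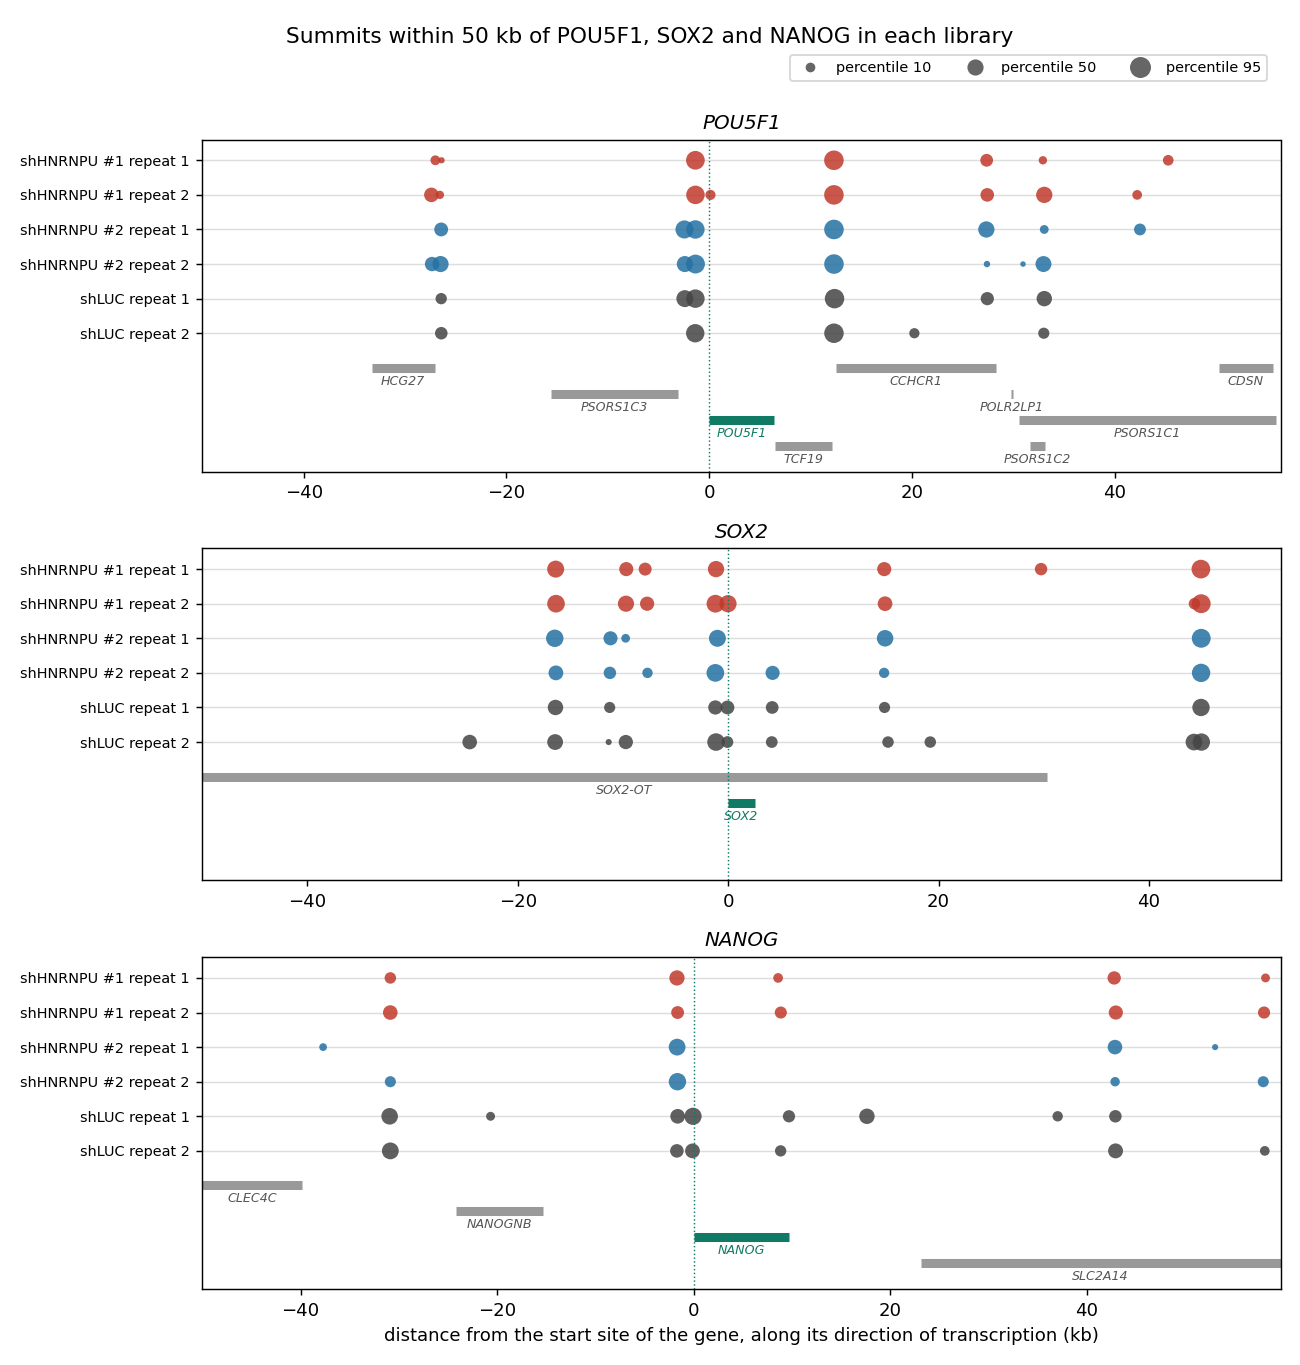
All 119 summits within 50 kb of the 3 genes by library and distance from the start site along the direction of transcription (kb), with point area growing with percentile and bars for RefSeq genes. Columns of 6 points mark the 9 sites present in every library, and the site 12304 bp past the POU5F1 start has percentiles of 98.3 to 99.6.

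The core genes were set beside 28 other genes of the pluripotency network. At 22 of the 28 a gene-end summit was present in all 6 libraries, and at LIN28B, NODAL and KLF17 in none. Gene-end summits separated the groups at 0 of the 28 genes in either direction, and a start summit of both shLUC libraries was missing from all 4 shHNRNPU libraries at 0. Over all protein-coding genes, 1.01% had fewer and 0.993% more gene-end summits in all 4 shHNRNPU libraries, and 0.297% had lost a start summit. At shares this low, 0 of 28 does not set these genes apart. SOX2 and NANOG were chosen by their gene-end summits, so they cannot be compared with the 28 on this measure. Within 50 kb, 2 of the 28 had more summits in all 4 shHNRNPU libraries and 0 had fewer. Named after their values were seen, they were SALL4, a zinc finger factor, with 5, 4, 5 and 4 against 3 and 3, and FOXH1, a SMAD partner, with 15, 15, 14 and 16 against 12 and 13. Within 50 kb, more summits in all 4 shHNRNPU libraries were found for 4.5% of all protein-coding genes, and fewer for 4.73%. The median difference in gene-end summits was 0 for the 28 genes and 0 for all protein-coding genes.

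Genes on other chromosomes with the most similar counts within 50 kb were found by the sum of absolute differences over the 6 libraries. For NANOG these were FIGN and TRAF3IP1, each at a sum of 1, and then ABL2, 1 of 15 genes at a sum of 2. FIGN had 5, 5, 4 and 4 summits with shHNRNPU and 7 and 6 with shLUC. For SOX2 the nearest was FMNL3 at a sum of 1, then ACYP2 and CEP83 at 2. For POU5F1, 5 genes were at a sum of 1, among them FCGR2A, INTS1 and MAPK3. The smallest sum found was 1 for each member, so no gene compared had the same counts in all 6 libraries.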

How the data were processed

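ATAC-seq summit lists of 6 libraries were analysed, 2 for each hairpin, with groups and repeat numbers from the sample titles. The authors deposited 1 list per library with a score read here as the −log10 of the q-value, from its layout and its minimum, which would be a q-value of 0.05. The labels do not say whether it is a p-value or a q-value. The submitters' processing notes name cutadapt, Bowtie2, SAMtools, MACS2 and deepTools and the build hg38, and parameters are not given in the sources used here.

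Summits were grouped into sites over the whole genome: the summit of highest percentile absorbed all summits within 250 bp, and this was repeated on the rest. Members were sites centred within 50 kb of POU5F1, SOX2 or NANOG in RefSeq GRCh38.p14. Sites within 2000 bp of an end of those genes were called gene-end, the others distal. The strand of POU5F1 is textbook knowledge, and the other strands and the promoter sequences are from RefSeq. TDGF1 was matched as CRIPTO.

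Described in full were all gene-end sites, lost or gained sites, shared sites separating the groups, and per gene the 3 strongest distal shared sites. Network genes were to be named where their gene-end summits separated the groups. For each member the 3 genes of other chromosomes with the most similar counts were taken. Members, lists and rules were chosen with earlier results of these data known, so no test of the groups was made. The grouping was tested on simulated data. Alternatives were match distances of 100 and 500 bp, scores from 5 upward, the 52168 strongest summits of each list (lists of one size), windows of 20 and 100 kb, a gene-end distance of 500 bp, absence within 1000 bp and leaving out each library. Python 3.11.15, numpy 2.4.6, pandas 2.3.3, scipy 1.17.1 and matplotlib 3.10.9 were used.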

Additional observations from a re-analysis of the deposited data

Results flagged for a closer look

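At the site 26499 bp upstream of POU5F1, next to the long noncoding RNA gene HCG27, the hairpins moved apart. The percentiles were 3.59 and 12.6 with shHNRNPU #1, 46.4 and 65.4 with shHNRNPU #2 and 28.6 and 36.7 with shLUC. Both libraries of the first hairpin were below both shLUC libraries and both libraries of the second were above, and the means of the hairpins differed by -47.8 points, #1 minus #2. This difference was not tested. Among 14 measures, 0 had a shHNRNPU library far from the other 3, where chance gives 0.7.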

How the results depend on the processing

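Of 175 recomputed values, 140 kept their direction and moved by less than the spread of the libraries, or, for counts, by at most 1.5 times, 28 moved by more and 7 reversed. The cause was not tested except where a smaller or larger set of summits or libraries is named. Numbers of summits do not use the match distance. Their values at 100 and 500 bp were bound to stay the same, and they count among the 140. The number of sites was 27 with a score of at least 5, 21 within 20 kb and 63 within 100 kb, as fewer or more summits enter, and 37 to 40 without 1 library. The NANOG start stayed a lost site under every setting run, but most settings could not have changed this. Its nearest shHNRNPU summit was 1568 bp away, beyond every match and absence distance used. Changing the window or leaving out a library could not undo the pattern either. The result is therefore no measure of how steady the call is. A match distance of 100 bp gave 2 lost sites, the second near SOX2. Leaving out 1 library gave 1 to 5 lost and 0 to 2 gained sites, since fewer libraries must follow the pattern. The 5 lost sites came without either shLUC library, 2 gained sites without shLUC repeat 1 and 1 without shHNRNPU #2 repeat 1. Without shHNRNPU #1 repeat 2 the SOX2 start was lost too, and without shHNRNPU #2 repeat 2 the site downstream of SOX2.

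The difference in summits within the windows was -4.75 within 100 kb. The difference in distal summits had no stable sign: it was -0.25 with lists of one size, -1 within 20 kb, -2 within 100 kb, -0.5 with a gene-end distance of 500 bp, and -0.25 to 0.75 without 1 library. The difference within 50 kb of POU5F1 turned to -0.25 within 20 kb, and that of SOX2 to 0.5 with a score of at least 5. The median percentile difference at shared sites was 17.2 with a score of at least 5, 8.98 with lists of one size and 2.19 to 8.77 without 1 library, the highest without shHNRNPU #1 repeat 1. The first value rests on 6 shared sites and the second on 8, against 9 in the main run. For both, percentiles were ranked again after weak summits had been dropped, so they are not on the scale of the main run. No paired analysis was possible because no result comes from a test, and nothing in the labels says that repeats of the same number belong together. Without read counts, how faint a region could have been called is not known for any library.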
